A study of Mus musculus with 98 samples.

Results

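Saa3, Hp, Lrg1, Slpi and Pglyrp1 encode secreted proteins of the acute phase response and of innate defence. The members were all probe sets mapped to these 5 symbols, and each gene was read by 1 probe set. They make up 5 of the 22626 non-control probe sets and 5 of the 14639 genes and unnamed probe sets on the array. All 5 passed the filter on low values and were among the 10247 features tested, and none of them lay at the lowest deposited value on any array.

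RNA from mice was measured on 98 1-colour Affymetrix arrays, 64 of blood leukocytes and 34 of spleen, in 3 models, namely burn injury, trauma-hemorrhage and infusion of LPS (lipopolysaccharide, from the outer membrane of bacteria). Each title carries a code, c or x, which the labels do not explain, and a letter. In blood the sample descriptions give E to the injured or infused mice and A to the sham mice, and the spleen titles all carry E. The 18 groups held 4 to 6 arrays each. In burn blood there were 5 arrays of c with A, 6 of c with E, 4 of x with A and 5 of x with E. In LPS blood the same groups held 6, 6, 5 and 5 arrays, and in trauma-hemorrhage blood 5, 6, 5 and 6. Burn spleen had 5 arrays of c and 6 of x, LPS spleen 6 and 6, and trauma-hemorrhage spleen 6 and 5. The burn samples from spleen are labelled as leukocytes from spleen, while the LPS and trauma-hemorrhage samples are labelled as spleen. Strain, age, sex, dose and time after injury are not given in the sources used here, and the labels do not tell whether replicate arrays are different mice. A p-value here therefore reflects the scatter among arrays, part or all of which may be technical. The comparison that all 6 sets (a model in a tissue) share is x against c, and it is reported as coded, since the labels do not say what the codes stand for.

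As background, the acute phase response is the change in secreted proteins that follows injury or infection. Interleukin-6 acts on it through STAT3, and interleukin-1 through NF-kB and C/EBP factors. The liver makes most of the circulating acute phase proteins, but several of them are also made by leukocytes and stromal cells. Saa3 is a serum amyloid A protein made mainly outside the liver, by macrophages and fat cells among others. Hp (haptoglobin) binds free hemoglobin, comes mainly from the liver and is also stored in neutrophil granules. Lrg1 is a leucine-rich glycoprotein of plasma and neutrophils that modifies TGF-beta signalling in endothelium. Slpi inhibits neutrophil elastase and cathepsin G and has antimicrobial activity. Pglyrp1 is a granule protein of neutrophils that binds bacterial peptidoglycan.

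Promoter windows of RefSeq (GRCm38.p6) were found for 4 of the 5 genes, Saa3, Slpi, Pglyrp1 and Lrg1. The 250 bases before the start site of 3 of them are shown because matches to motifs of the factors named above fell in them. Matches are in capitals, 5′ to 3′ on the strand of the gene.
Saa3, chr7:46715677-46715926, minus strand: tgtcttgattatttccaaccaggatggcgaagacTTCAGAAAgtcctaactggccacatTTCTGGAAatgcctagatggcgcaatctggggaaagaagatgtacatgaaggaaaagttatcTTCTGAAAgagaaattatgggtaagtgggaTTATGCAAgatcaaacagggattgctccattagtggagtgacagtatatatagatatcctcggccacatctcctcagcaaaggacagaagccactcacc
Slpi, chr2:164356508-164356757, minus strand: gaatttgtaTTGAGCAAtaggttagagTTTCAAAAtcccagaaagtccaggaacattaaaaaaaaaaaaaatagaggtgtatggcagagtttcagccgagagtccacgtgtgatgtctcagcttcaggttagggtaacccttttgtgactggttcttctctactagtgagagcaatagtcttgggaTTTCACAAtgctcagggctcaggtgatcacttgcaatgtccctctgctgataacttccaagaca
Pglyrp1, chr7:18884440-18884689, plus strand: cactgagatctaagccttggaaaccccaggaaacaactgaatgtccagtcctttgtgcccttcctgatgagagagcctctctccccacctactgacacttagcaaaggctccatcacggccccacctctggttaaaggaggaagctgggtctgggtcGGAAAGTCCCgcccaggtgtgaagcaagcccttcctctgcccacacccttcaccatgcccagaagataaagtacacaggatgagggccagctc

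The window searched ran from 250 bases before to 50 bases after the start, on both strands. The C/EBP motif TTNNGNAA matched 4 times in Saa3 and 3 times in Slpi, and 40.7% of all 32851 windows in the table held it. The NF-kB consensus matched once, in Pglyrp1, beside 8.46% of all windows. The STAT motif TTCNNNGAA, held by 8.3% of all windows, was not found in these 4 windows. In the Lrg1 window the TATA box letters TATAAA, held by 13.6% of all windows, were found 12 bases after the start, and no other motif matched. The Saa3 window lies within the gene's RefSeq span, which reaches farther upstream, so it does not cover every annotated start. A match describes letters only. No binding was measured.

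The deposited values were linear intensities. Median intensities of the arrays ranged from 76.2 to 145 and differed between sets, so levels are described within a set. Pearson correlations between arrays of one group ranged from 0.939 to 0.994. Of the 20 burn blood arrays, 6 (c E replicates 1, 3 and 6, x A replicate 1, x E replicates 1 and 3) had a summed intensity of 9 hepatocyte genes of 5734 to 22991, against 1006 to 1709 on the other 14. Another pair, c E replicates 4 and 5, had a summed intensity of 10 neutrophil genes of 40557 to 44392, against 5407 to 12412 on the other 4 arrays of their group. Counts of the 5 genes in burn blood are therefore given with and without these arrays.

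The codes differed in at least 1 of the 5 genes in 5 of the 6 sets, and each difference that passed the test was higher in x. In trauma-hemorrhage spleen 4 of the 5 genes rose in x, where 11.2% of all features tested did so. In trauma-hemorrhage blood 3 of 5 rose (Saa3, Hp and Lrg1), with 22.5% of all features higher and 31.4% lower. Of these, Hp and Lrg1 did not pass with the beta-actin ratio described below as a covariate, and Saa3 did. In LPS blood 3 of 5 rose (Hp, Slpi and Pglyrp1), with 13.6% of all features higher. None of these 3 passed with the beta-actin ratio described below as a covariate, or in the second run of title numbers alone. In LPS spleen 2 of 5 rose (Saa3 and Pglyrp1), with 3.04% of all features higher and 1.23% lower. In burn blood 1 of 5 rose (Hp), beside 7.97% of all features. In burn spleen 0 of 5 passed limma's test, with 2 at an unadjusted p under 0.05, beside 9.21% of all features higher and 8.58% lower. The median log2 difference over the 5 genes was 0.57, 1.19 and 0.90 in burn, LPS and trauma-hemorrhage blood, and 0.18, 0.84 and 1.47 in the spleen of the same models. The median over all features lay between -0.04 and -0.01 in these 6 comparisons. Differences here and below are on the log2(intensity + 16) scale after quantile normalization, as x minus c with the standard error (SE), tested with limma's moderated test at an adjusted p of 0.05 over all features. In these bulk samples, fewer cells of a type and less RNA per cell cannot be told apart.

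**Figure D1:**
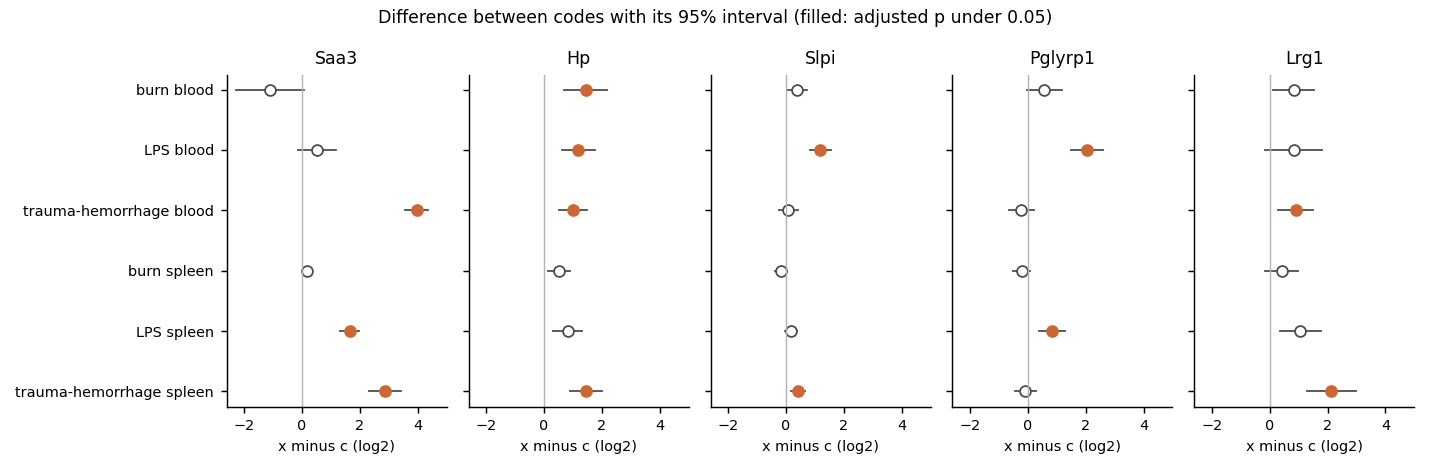
Log2 difference of x minus c with its 95% interval (horizontal bars) for the 5 genes in the 6 array sets; filled points passed an adjusted p of 0.05. Saa3 stands at 3.96 in trauma-hemorrhage blood and 2.88 in trauma-hemorrhage spleen, and Pglyrp1 at 2.05 in LPS blood and -0.22 in trauma-hemorrhage blood.

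Saa3 was higher in x in trauma-hemorrhage in both tissues. In trauma-hemorrhage blood its intensity on c arrays was 91.2, 126, 177, 184 and 202 with letter A, and 193 to 691 (median 261) with E. On x arrays it was 2971, 3079, 4495, 4605 and 5222 with A, and 2751 to 6752 (median 3644) with E. Every x array thus lay above every c array, as 2.55% of all features did. The difference was 3.96 ± 0.20 (95% interval 3.55 to 4.37), or 15.6-fold, in 11 of 11 x arrays (adjusted p = 1.61e-11), counting x arrays that lay on the side of the difference from the mean of the c arrays of their letter. It ranked first of 10247 features by signed difference. It was 4.46 ± 0.29 with letter A (22.0-fold, adjusted p = 4.09e-09) and 3.46 ± 0.27 with E (adjusted p = 1.00e-07).

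In trauma-hemorrhage spleen Saa3 read 39.2 to 91.7 (median 41.4) on the 6 c arrays and 336, 378, 482, 562 and 1292 on the x arrays. The codes did not overlap, as for 6.08% of all features, and the difference was 2.88 ± 0.25, or 7.35-fold (adjusted p = 1.16e-06). In LPS spleen the c arrays read 127 to 208 (median 171) and the x arrays 374 to 663 (median 614). These too did not overlap, as for 2.31% of all features, with a difference of 1.66 ± 0.15, or 3.16-fold (adjusted p = 6.92e-06). In burn spleen the c arrays read 47.7, 53.4, 55.0, 58.3 and 59.4 and the x arrays 57.0 to 80.5 (median 60.9), a difference of 0.18 ± 0.08 that did not pass (adjusted p = 0.152). Saa3 was thus separated by code in 2 of the 3 spleen sets.

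In LPS blood Saa3 overlapped between codes, at 176 to 913 (median 299.5) in c and 227 to 1159 (median 505) in x, with a difference of 0.51 ± 0.31 (adjusted p = 0.248). In burn blood it varied widely within c, from 101 to 2553 (median 694), and lay at 117 to 1383 (median 213) in x. Its difference there, -1.10 ± 0.56, did not pass (adjusted p = 0.197), and its interval ran from -2.28 to 0.08. Of the burn x arrays with letter A, replicate 1 read 1383 and the other 3 read 117, 143 and 147.

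**Figure D2:**
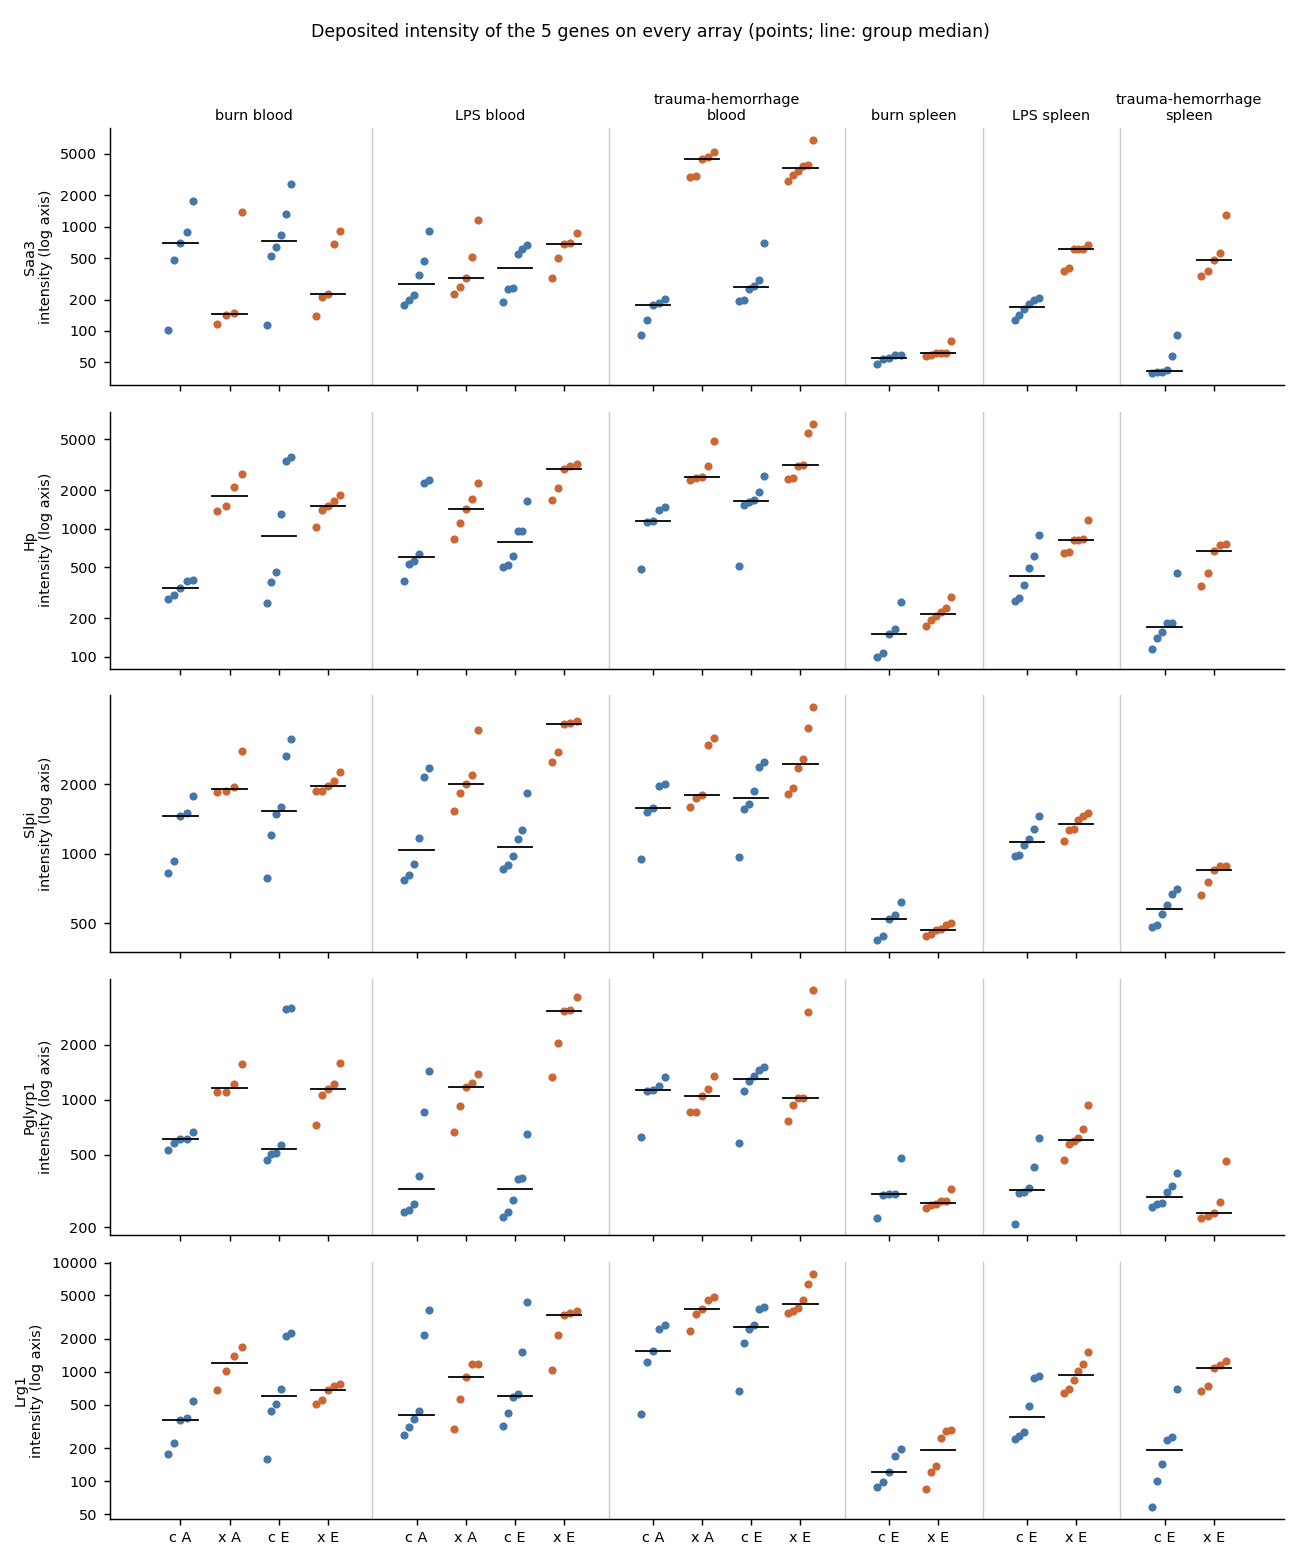
Deposited intensity (log axis) of the 5 genes on each array in the 18 groups, with c in blue, x in orange and a line at each group's median; panels are scaled separately. In trauma-hemorrhage blood the Saa3 points of x lie at 2751 to 6752, above the 91.2 to 691 of c.

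Hp was higher in x in all 3 blood sets. In burn blood it read 284, 304, 342, 391 and 396 on the c arrays with A and 1383, 1494, 2120.4 and 2648 on the x arrays with A. With E it read 265 to 3640.1 (median 878) in c and 1027, 1396, 1504, 1642 and 1847 in x. The A arrays were separated by code and the E arrays overlapped, since c E replicates 4 and 5 read 3378 to 3640.1. Over both letters the difference was 1.45 ± 0.36, or 2.73-fold, in 9 of 9 x arrays (adjusted p = 0.00612). Without that pair it was 1.86 (adjusted p = 1.79e-06), and without the 6 arrays with high hepatocyte genes it was 1.02 and did not pass (adjusted p = 0.170).

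In LPS blood Hp read 392 to 2387 (median 596) in c with A and 825, 1104, 1431, 1702 and 2276 in x with A. With E it read 502 to 1633 (median 789) in c and 1665, 2064, 2908, 3079 and 3216 in x. Only the E arrays were separated by code. The difference was 1.19 ± 0.28, or 2.28-fold, in 10 of 10 x arrays (adjusted p = 0.00259).

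In trauma-hemorrhage blood Hp read 485, 1126, 1150.4, 1404 and 1483 in c with A and 2403, 2487, 2549.6, 3091 and 4828 in x with A. With E it read 512 to 2580.2 (median 1655) in c and 2439 to 6612 (median 3133) in x. The letter A arrays did not overlap and the letter E arrays overlapped. The difference was 1.01 ± 0.24, or 2.01-fold, in 11 of 11 x arrays (adjusted p = 0.00148).

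In spleen Hp rose in trauma-hemorrhage, where c read 115 to 454 (median 170.2) and x 360.0, 455, 669, 751 and 754. The highest c array, replicate 5, lay above the lowest x array. The difference was 1.47 ± 0.26, or 2.77-fold (adjusted p = 5.79e-04). In LPS spleen, with 275 to 887 in c and 645 to 1172 in x, it was 0.82 ± 0.24 and did not pass (adjusted p = 0.0746). It passed without c replicate 2 (1.02), and with the run of title numbers as a block (adjusted p = 0.0269). In burn spleen, with 99.99 to 266 in c and 174 to 295 in x, it was 0.51 ± 0.18 (adjusted p = 0.0614). It passed there without c replicate 5, at 0.70 (adjusted p = 0.00261), and also without x replicate 6.

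Lrg1 rose in x in trauma-hemorrhage in both tissues. In blood it read 410.2, 1237, 1565, 2447 and 2708 in c with A and 2374, 3355, 3729, 4530.5 and 4841 in x with A. With E it read 669 to 3904 (median 2587) in c and 3426 to 7897 (median 4197) in x. The codes overlapped with both letters. The difference was 0.90 ± 0.29, or 1.87-fold, in 11 of 11 x arrays (adjusted p = 0.0123).

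In trauma-hemorrhage spleen Lrg1 read 58.1 to 691 (median 192) in c and 668, 741, 1094, 1152 and 1256 in x. A single c array lay within the range of x, and the difference was 2.13 ± 0.40, or 4.37-fold (adjusted p = 9.43e-04). In LPS spleen it read 246 to 913 in c and 638 to 1528 in x, a difference of 1.06 ± 0.33 that did not pass (adjusted p = 0.107). It passed without c replicate 1 (1.26) or 3 (1.27), and with the title run as a block (adjusted p = 0.0321). Burn spleen gave 89.5 to 199 in c and 85.9 to 292 in x, a difference of 0.41 ± 0.27 (adjusted p = 0.318).

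In burn blood Lrg1 read 176, 222, 363, 381 and 537 in c with A and 686, 1022, 1396 and 1698 in x with A, and these did not overlap. With E it read 159 to 2249.7 (median 602) in c and 513, 551, 687, 745 and 779 in x. The difference over both letters was 0.83 ± 0.34 and did not pass (adjusted p = 0.0976). In LPS blood it read 264 to 4328 (median 511) in c and 301 to 3584 (median 1181) in x, at 0.83 ± 0.48 (adjusted p = 0.213). The titles of each blood set and of LPS spleen fall into 2 runs of numbers, which the labels do not explain. In LPS blood Lrg1 differed by 2.25 in the first run, past the threshold, and by -0.56 in the second, not past it. Within the runs of LPS blood, the first and second gave 1.78 and 0.59 for Hp, 1.49 and 0.87 for Slpi, and 2.67 and 1.46 for Pglyrp1, of which the values of the first run passed. In trauma-hemorrhage blood they gave 3.87 and 4.04 for Saa3, both past the threshold, 1.12 and 0.89 for Hp, of which the second passed, and 0.89 and 0.87 for Lrg1, neither of which passed. Hp in burn blood was at 1.77 in the first run, past the threshold, and 0.98 in the second, not past it.

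Slpi rose in x in LPS blood and in trauma-hemorrhage spleen. In LPS blood it read 769 to 2365 (median 1037) in c with A and 1537, 1838, 2015, 2191 and 3431 in x with A. With E it read 862 to 1836 (median 1066) in c and 2488, 2761, 3665, 3671 and 3754 in x. Codes were separated with E and overlapped with A. The difference was 1.20 ± 0.18, or 2.29-fold, in 10 of 10 x arrays (adjusted p = 3.26e-05).

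In trauma-hemorrhage spleen Slpi read 482 to 706 (median 575) in c and 662, 754, 848, 884 and 888 in x, overlapping at the lowest x array, with a difference of 0.44 ± 0.11, or 1.35-fold (adjusted p = 0.0083). In trauma-hemorrhage blood its codes overlapped widely, at 948 to 2488 (median 1644) in c and 1600.2 to 4329.7 (median 2355) in x. The difference was 0.08 ± 0.16 (95% interval -0.25 to 0.41, adjusted p = 0.683) and became 0.53 (adjusted p = 0.0237) without scaling between arrays. In burn blood it read 825, 932, 1452, 1510.0 and 1783 in c with A and 1845, 1879.6, 1941 and 2797 in x with A, without overlap. Over both letters Slpi differed there by 0.40 ± 0.16 (adjusted p = 0.088). In LPS spleen the difference was 0.17 ± 0.10 (adjusted p = 0.551), and in burn spleen -0.16 ± 0.09 (adjusted p = 0.267).

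Pglyrp1 rose in x in both tissues of the LPS model. In LPS blood it read 243 to 1429.8 (median 325) in c with A and 666, 921, 1179, 1235 and 1383 in x with A. With E it read 227 to 649 (median 324) in c and 1332, 2059, 3076, 3091 and 3639 in x. The letter E arrays were separated by code, while with A c replicates 5 (859) and 6 (1429.8) reached into the x range. The difference was 2.05 ± 0.27, or 4.15-fold, in 10 of 10 x arrays (adjusted p = 9.66e-06), and it ranked sixth among 10247 features by signed difference. In LPS spleen c read 209.5 to 621 (median 321) and x 467 to 938 (median 606), overlapping, with a difference of 0.84 ± 0.21, or 1.79-fold (adjusted p = 0.0344). This spleen difference did not pass when c replicate 1, 4 or 5 or x replicate 1, 3, 4, 5 or 6 was left out, at 0.73 to 0.85 with adjusted p up to 0.0858.

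In trauma-hemorrhage Pglyrp1 did not pass in either tissue. In blood it read 626, 1123, 1131, 1192 and 1342 in c with A and 856, 859.6, 1047, 1152 and 1356 in x with A. With E it read 582 to 1511 (median 1307) in c and 763 to 3979.6 (median 1027) in x. The codes overlapped with both letters, and the difference was -0.22 ± 0.21 (95% interval -0.65 to 0.22, adjusted p = 0.390). Without scaling it was 0.15, not past, and with array weights -0.42 (adjusted p = 0.0324). In spleen, at 258 to 398 in c and 226 to 459 in x, it was -0.08 ± 0.17 (95% interval -0.45 to 0.29, adjusted p = 0.785). In burn blood Pglyrp1 read 534, 582, 608, 610.4 and 668 in c with A and 1103, 1109.7, 1213 and 1561 in x with A, without overlap. With E it read 467 to 3197 (median 539) in c and 728, 1062, 1149, 1221 and 1599 in x. Over both letters the difference was 0.57 ± 0.29 (adjusted p = 0.184), and in burn spleen it was -0.21 ± 0.14 (adjusted p = 0.303), or -0.35 without c replicate 4 (adjusted p = 0.0468).

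In burn blood the result depended on which arrays entered. Besides Hp, the c E pair read high for Slpi (2662 to 3153, against 789.6 to 1597 on the other 4 arrays), Pglyrp1 (3142 to 3197 against 467 to 566) and Lrg1 (2151 to 2249.7 against 159 to 694). Without the pair 4 of 5 genes passed, beside 1216 of 10247 features higher, with Slpi at 0.55 (adjusted p = 0.00488), Pglyrp1 at 0.95 (adjusted p = 1.41e-06) and Lrg1 at 1.19 (adjusted p = 0.00112). Without c E replicate 4 alone Slpi was at 0.46, Pglyrp1 at 0.74 and Lrg1 at 0.98, and without c E replicate 5 alone at 0.46, 0.71 and 0.97, all past the threshold. Slpi also passed without c A replicate 3 (0.47). The pair are c arrays that read high for Hp, Slpi, Pglyrp1 and Lrg1. Leaving them out raises x minus c for these genes, and narrows the spread, by construction. The passes without them, here and within the letters, are thus no separate support. Without the 6 arrays with high hepatocyte genes 0 of 5 passed in limma, beside 394 features higher. Without all 8 arrays 4 of 5 passed again, beside 968 features higher and with 1 array left in c with E.

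**Figure D3:**
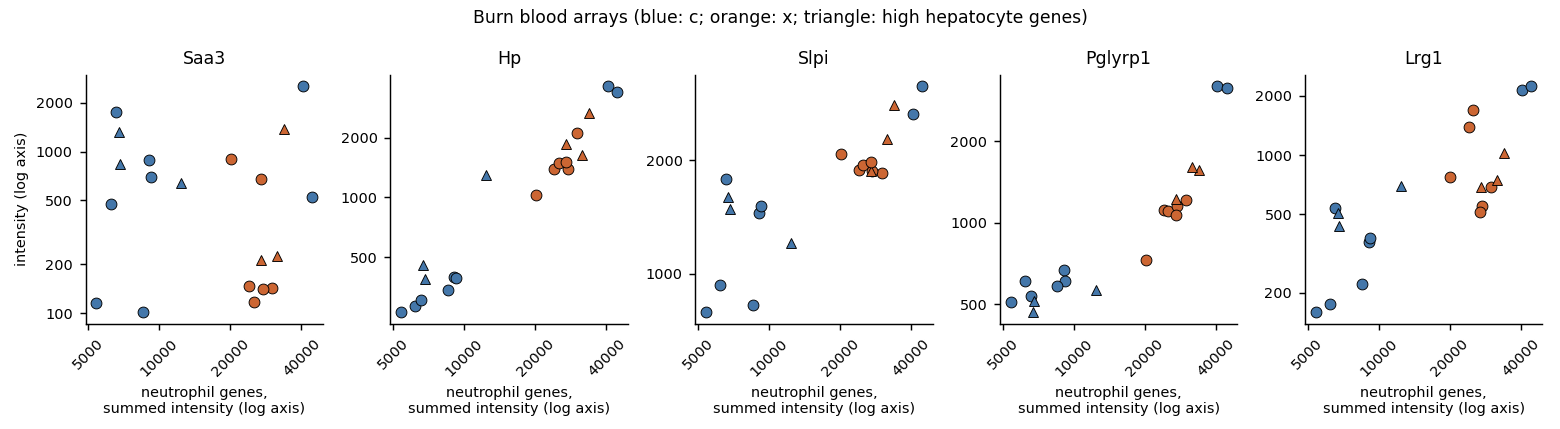
Deposited intensity of each gene against the summed intensity of the neutrophil genes on the 20 burn blood arrays, both on log axes, with c in blue and x in orange; triangles mark the 6 arrays with high hepatocyte genes. The 2 c arrays at a sum of 40557 to 44392 have Hp at 3378 to 3640.1 and Pglyrp1 at 3142 to 3197.

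Within the letters of burn blood, Hp and Lrg1 passed in the sham samples (A) and none of the 5 genes passed with E. The direct test of code by letter, given below, called 0 features, so a difference between the letters is not shown. With A, Hp differed by 2.35 ± 0.53 (5.11-fold, adjusted p = 0.00443) and Lrg1 by 1.80 ± 0.51 (3.48-fold, adjusted p = 0.0188), so 2 of 5 rose beside 5.09% of all features. The Lrg1 call was lost without x A replicate 3 (1.68, adjusted p = 0.0536) or 4 (1.61, adjusted p = 0.0614). There 4 of 5 genes did not overlap between codes, beside 7.98% of all features. With E, 0 of 5 passed in limma (0 at an unadjusted p under 0.05), beside 3.55% of all features higher and 3.11% lower, and Hp was at 0.54 (95% interval -0.46 to 1.55). The test of code by letter called 0 genes in limma, with 1259 of 10247 features at an unadjusted p under 0.05. Hp, at -1.81, and Lrg1, at -1.94, were among these. Without the c E pair, letter E gave Hp at 1.38 (adjusted p = 0.00324) and Pglyrp1 at 0.94 (adjusted p = 1.94e-04), beside 994 of 10247 features higher. Without all 8 arrays it gave Hp at 2.06 (adjusted p = 2.16e-04) and Lrg1 at 1.74 (adjusted p = 0.0497), beside 677 features higher, and without the 6 arrays 0 of 5 passed in limma.

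The calls with letter A also depended on the arrays that entered. Without the pair 4 of 5 genes passed with A, beside 849 features higher, with Slpi at 0.61 (adjusted p = 0.0295) and Pglyrp1 at 0.96 (adjusted p = 1.15e-04) besides Hp and Lrg1. Without the 6 arrays Hp alone passed, at 2.21 (adjusted p = 0.0207), beside 401 features higher, and Lrg1 was at 1.87 (adjusted p = 0.0731). Without all 8 arrays Hp, Lrg1 and Pglyrp1 passed, at 2.21, 1.86 and 0.87, beside 840 features higher.

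In LPS blood Slpi (0.88 ± 0.25, adjusted p = 0.0232) and Pglyrp1 (1.30 ± 0.38, adjusted p = 0.0274) rose with letter A, beside 6.73% of all features higher and 5.52% lower. Both calls were lost without scaling, at adjusted p of 0.0728 and 0.0552, and both without c A replicate 1, 2 or 4. Slpi was also lost without x A replicate 5, and Pglyrp1 without c A replicate 3 or x A replicate 1 or 2, with differences over all these fits of 0.74 to 0.81 and 1.14 to 1.26. With E, Hp (1.62 ± 0.39, 3.08-fold, adjusted p = 0.00609), Slpi (1.51 ± 0.25, 2.85-fold, adjusted p = 2.85e-04) and Pglyrp1 (2.81 ± 0.38, 7.01-fold, adjusted p = 4.86e-05) rose, beside 8.11% of all features higher and 8.43% lower. These 3 did not overlap between codes, beside 4.48% of all features. Lrg1 passed with E without c E replicate 5 (1.99, adjusted p = 0.0328), and was otherwise at 1.50 ± 0.68 (adjusted p = 0.142). The difference of the 2 letters was called for 0 features in limma, with 786 at an unadjusted p under 0.05. Pglyrp1, at 1.51, was 1 of these.

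In trauma-hemorrhage blood Hp rose with both letters, by 1.03 ± 0.35 with A (adjusted p = 0.0267) and 0.99 ± 0.32 with E (adjusted p = 0.0250). Hp was lost with A without c replicate 3 (0.74) or x replicate 1 (0.85), and with E without c replicate 2 (0.70) or x replicates 2 (0.84) or 4 (0.90). Together with Saa3, 2 of 5 genes rose with each letter, beside 17.2% of all features with A and 12.4% with E. Saa3 and Hp did not overlap between codes with A, beside 17.0% of all features, and Saa3 did not with E, beside 5.47%. Lrg1 was at 0.99 with A (adjusted p = 0.0685) and 0.81 with E (adjusted p = 0.117), and passed with A without c replicate 2 (1.19) or 5 (1.22). Code by letter called 0 features in limma, with 852 at an unadjusted p under 0.05, of which Saa3 was 1.

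**Figure D4:**
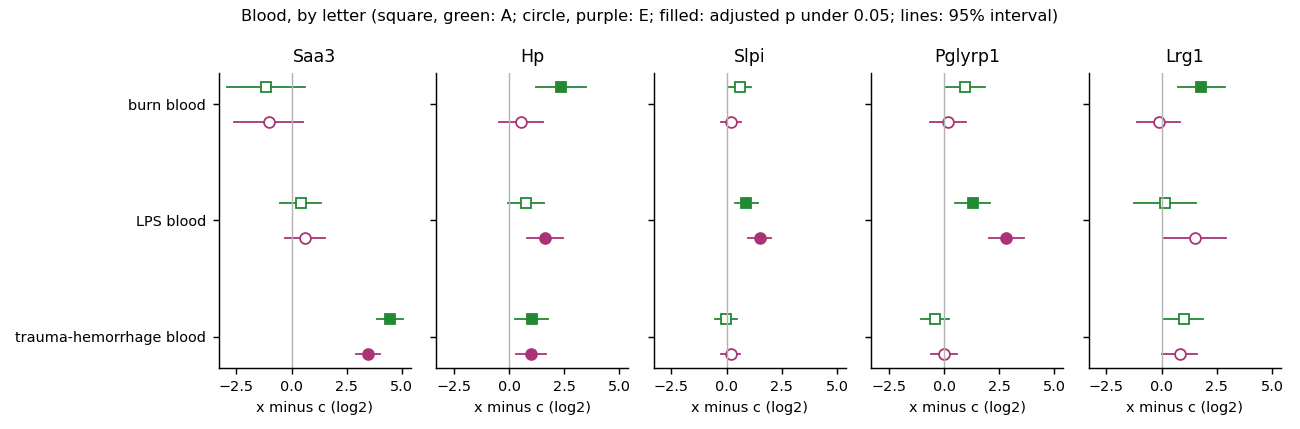
Log2 difference of x minus c with its 95% interval in each blood set, by letter (green squares for A, purple circles for E; filled if the adjusted p was under 0.05). Hp in burn blood is at 2.35 with A and 0.54 with E, and Pglyrp1 in LPS blood at 1.30 with A and 2.81 with E.

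The comparison that the labels do explain, injured or infused against sham, called none of the 5 genes in any model. E minus A, averaged over codes, gave medians over the 5 genes of 0.25 in burn, 0.31 in LPS and 0.31 in trauma-hemorrhage blood. None of the 5 had an unadjusted p under 0.05 in limma. Over all features the calls were 0, 0 and 3, with 560, 576 and 1070 at an unadjusted p under 0.05, and in trauma-hemorrhage 0.00976% of all features were called higher and 0.0195% lower. Lrg1 in LPS blood, at 0.98 ± 0.48 (95% interval -0.01 to 1.97, adjusted p = 0.877), had the smallest unadjusted p of the 15 values (0.0519). The smallest adjusted p was that of Saa3 in trauma-hemorrhage blood, at 0.38 ± 0.20 (adjusted p = 0.518).

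The x minus c difference differed between the sets of different models. Each model is a single set in a tissue, so model and array set cannot be told apart. In blood, Saa3 was higher in trauma-hemorrhage than in burn by 5.06 ± 0.57 (adjusted p = 2.47e-10), beside 21.4% of all features higher and 24.1% lower. Against LPS it was higher by 3.45 ± 0.55 (adjusted p = 7.98e-07), beside 22.1%. Slpi and Pglyrp1 went the other way against LPS, at -1.12 ± 0.24 (adjusted p = 1.35e-04) and -2.27 ± 0.38 (adjusted p = 1.44e-06), beside 27.3% of all features lower. Pglyrp1 was the lowest of 10247 features by signed difference in that contrast. Between burn and LPS blood, Saa3 (-1.61 ± 0.57, adjusted p = 0.0334), Slpi (-0.79 ± 0.25, adjusted p = 0.0156) and Pglyrp1 (-1.48 ± 0.39, adjusted p = 0.00301) were lower in burn, beside 12.2% of all features lower and 9.88% higher. The Saa3 call was lost, at -1.53 to -1.39, without burn c A replicate 3, c E replicate 1 or 4, x A replicate 2, 3 or 4, x E replicate 2 or 3, or LPS x A replicate 2. It was also lost without the burn c E pair (-1.46, adjusted p = 0.0515), without the 6 arrays with high hepatocyte genes (-1.58, adjusted p = 0.0602) and without all 8 (-0.58, adjusted p = 0.589). Without all 8 Slpi was lost too, at -0.45 (adjusted p = 0.356), and Pglyrp1 passed in each of these fits, at -2.02 to -1.10. With the beta-actin ratio as a covariate Saa3 (-0.85, adjusted p = 0.421), Slpi (-0.17, adjusted p = 0.721) and Pglyrp1 (-0.36, adjusted p = 0.604) did not pass, and Hp was higher in burn than in LPS blood, by 1.61 ± 0.52 (adjusted p = 0.0155).

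The larger x minus c difference of Saa3 in trauma-hemorrhage than in burn blood passed in each of these 4 fits. That of Pglyrp1 was lower in trauma-hemorrhage than in burn blood without burn c E replicate 4 (-0.95) or 5 (-0.93), or without both (-1.17). It was also lower without trauma-hemorrhage x E replicate 2 (-0.90), with array weights (-1.19) or with the beta-actin covariate (-2.08). These 3 contrasts share sets, so they are not independent.

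In spleen too, the values compared between models are x minus c differences and not levels. On this measure Saa3 was higher in trauma-hemorrhage than in burn by 2.70 ± 0.28 (adjusted p = 1.47e-09). Lrg1 was higher by 1.72 ± 0.54 (adjusted p = 0.0178) and Slpi by 0.59 ± 0.15 (adjusted p = 0.0036), so 3 of 5 passed beside 9.51% of all features. Hp, at 0.96, did not pass (adjusted p = 0.0512) and passed in 6 fits that left out 1 array, at 1.04 to 1.18 (burn c replicate 3 or 4 or x replicate 3, or trauma-hemorrhage c replicate 5 or x replicate 3 or 4). Against LPS spleen, Saa3 was higher by 1.22 ± 0.27 (adjusted p = 0.00148, 5.04% of all features higher) and Pglyrp1 lower, at -0.92 ± 0.28 (adjusted p = 0.0221, 8.14% of all features lower). Lrg1 passed as higher without trauma-hemorrhage c replicate 5 (1.40). Burn spleen lay below LPS spleen in Saa3 (-1.48 ± 0.27, adjusted p = 2.07e-04) and Pglyrp1 (-1.05 ± 0.28, adjusted p = 0.0101), beside 4.65% of all features. The titles of LPS spleen differ from all others by a version mark. The burn samples are labelled as leukocytes from spleen and the others as spleen. In the contrasts with burn spleen, model and sample material therefore cannot be told apart.

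Between tissues, with letter E alone, the LPS difference was larger in blood than in spleen for Slpi, by 1.34 ± 0.21 (adjusted p = 1.75e-04), and Pglyrp1, by 1.97 ± 0.38 (adjusted p = 0.00111), beside 3.80% of all features. The LPS difference of Saa3 was lower in blood than in spleen without LPS blood c E replicate 6 (-1.24, adjusted p = 0.0226). In burn and trauma-hemorrhage 0 of 5 passed in limma (0 and 1 at an unadjusted p under 0.05), beside 1.61% and 13.5% of all features higher. In trauma-hemorrhage Lrg1 passed, at -1.64, without blood c E replicate 2 or without spleen c replicate 5.

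Of the neutrophil genes 10 were tested. Of these 7 were higher in x in burn blood, 10 in LPS blood and 3 in trauma-hemorrhage blood, where 2 were lower. Of all features 7.97%, 13.6% and 22.5% were higher there, and 31.4% were lower in trauma-hemorrhage blood. In spleen 1 was higher in burn, 7 in LPS and 5 in trauma-hemorrhage, beside 9.21%, 3.04% and 11.2% of all features. The counts in trauma-hemorrhage blood and burn spleen were thus near or below the shares of all features. The median log2 differences of the neutrophil genes were 1.27, 0.82 and 0.27 in blood and 0.19, 0.75 and 0.49 in spleen. In trauma-hemorrhage blood the mean log2 value of these genes had a median of 10.46 in c and 10.37 in x. In burn blood Csf3r, the receptor for granulocyte colony-stimulating factor, was at 1.25 ± 0.21. S100a9 (1.55 ± 0.30) and S100a8 (1.43 ± 0.28), which together form calprotectin, were also higher. In LPS blood the surface protein Cd177 was at 2.07 ± 0.28, Csf3r at 0.75 ± 0.13 and the collagenase Mmp8 at 2.09 ± 0.42. In trauma-hemorrhage blood Cd177 was at 1.60 ± 0.33, the gelatinase Mmp9 at -0.95 ± 0.25 and S100a9 at 0.45 ± 0.15.

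In spleen the neutrophil genes named by the same rule were Trem3 in burn (0.31 ± 0.09) and Cd177 (1.73 ± 0.23), Mmp8 (1.78 ± 0.27) and Trem3 (0.99 ± 0.16) in LPS. In trauma-hemorrhage they were S100a9 (0.97 ± 0.17), Cd177 (1.13 ± 0.20) and S100a8 (0.83 ± 0.17). The summed intensity of the neutrophil genes ranged from 5407 to 44392 in c and 20139.9 to 33804 in x in burn blood. It ranged from 10357 to 37705 and 16692 to 43425 in LPS blood, and from 10503 to 37998 and 24416 to 57474 in trauma-hemorrhage blood. In spleen it was 5904 to 11523 and 6896 to 11597 in burn, 8320 to 20161 and 16851 to 24017 in LPS, and 5015 to 11649 and 10183 to 15266 in trauma-hemorrhage. None of these genes was at the lowest deposited value on any array.

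On some single arrays Hp, Slpi, Pglyrp1 and Lrg1 went with this sum, and on others not all of them did. In LPS blood the 3 c arrays with the highest values of Hp, Slpi, Pglyrp1 and Lrg1 (c A replicates 5 and 6, c E replicate 5) had neutrophil sums of 31006, 37705 and 29169, against 10357 to 17905 on the other c arrays. In trauma-hemorrhage blood c A replicate 3 and c E replicate 2, lowest of their groups in Hp, Slpi, Pglyrp1 and Lrg1, had sums of 10503 and 11929, the lowest of that set. Its x E replicates 2 and 4, with Pglyrp1 at 3979.6 and 3037 against 763 to 1029 on the other 4, had the highest sums, 57474 and 53406. In burn blood c A replicate 3 was highest of its group in Slpi (1783) and Lrg1 (537) and lowest in Pglyrp1 (534). Its sum was 6553, against 6214 to 9210 on the other arrays of that group. The part of neutrophil number in the differences of the 5 genes was not tested.

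Of the other leukocyte lists, B cell genes (8 tested) were lower in x for 8 of 8 in burn blood and in burn spleen, 4 in trauma-hemorrhage blood and 6 in trauma-hemorrhage spleen. In LPS they were lower for 1 in blood, where 1 was higher, and for 2 in spleen. Of the 10 monocyte and macrophage genes tested, 1, 3 and 3 were higher and 1, 1 and 2 lower in burn, LPS and trauma-hemorrhage blood, and 1, 1 and 2 higher and 6, 1 and 3 lower in the spleen of the same models. In trauma-hemorrhage blood their summed intensity was 2503 to 6002 in c and 6463 to 12464 in x. The brightest genes weigh most in such a sum. The mean log2 value of the same genes overlapped between codes there, at 7.95 to 8.69 in c and 8.44 to 8.81 in x. Hepatocyte genes (8 tested) were lower for 6 of 8 in trauma-hemorrhage blood, beside 31.4% of all features, and for 1 in LPS blood. In burn blood and in each spleen set 0 of 8 passed in limma. The summed intensity of the 9 hepatocyte genes on the array was 2162 to 2530 in c and 1614 to 2282 in x in trauma-hemorrhage blood.

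Of 8 T cell genes, 4 were higher in burn spleen and 3 in trauma-hemorrhage blood, and 1, 1 and 2 were lower in burn, LPS and trauma-hemorrhage blood and 4 in trauma-hemorrhage spleen. Of 6 NK cell genes, 0, 2 and 2 were higher and 4, 1 and 1 lower in limma in the blood sets, and 0, 1 and 1 higher and 4, 3 and 4 lower in the spleen sets. Of 8 platelet genes, 5 were higher in LPS blood, 2 lower in burn blood and 3 lower in trauma-hemorrhage blood, and of 6 erythroid genes 1 was higher and 1 lower in burn blood, 2 higher in LPS blood, 4 lower in trauma-hemorrhage blood and 4 lower in burn spleen. Of 5 genes of fat cells, fibroblasts and endothelium, 2 were lower in burn spleen, 1 was lower in LPS spleen and 1 was higher in trauma-hemorrhage spleen. The part of these cell types in the differences of the 5 genes was not tested.

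The log2 ratio of the 3′ to the 5′ probe set of beta-actin, an index of RNA integrity and of labelling, separated the codes in LPS and trauma-hemorrhage blood. It was 1.58 ± 0.0587 (SD, n = 12) in c and 1.07 ± 0.105 (SD, n = 10) in x in LPS blood. In trauma-hemorrhage blood it was 1.99 ± 0.135 (SD, n = 11) in c and 1.42 ± 0.191 (SD, n = 11) in x. In the other 4 sets the codes overlapped. With the ratio as a covariate Saa3 in trauma-hemorrhage blood was 3.84 ± 0.46 (adjusted p = 4.17e-04), Hp 0.11 (adjusted p = 0.963) and Lrg1 0.50 (adjusted p = 0.829). In LPS blood Hp was -0.42 (adjusted p = 0.778), Slpi 0.08 (adjusted p = 0.939) and Pglyrp1 0.65 (adjusted p = 0.632). Over the whole table the features called went from 5521 to 13 and from 2848 to 1123. Code and ratio cannot be told apart in these 2 sets.

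Other genes of the acute phase response were followed by lists. Of 23 other acute phase proteins 21 were on the array and 8 were tested, with the serum proteins Saa1, Saa2, Orm1, Crp, Hpx and the fibrinogen chains under the filter. The lipopolysaccharide-binding protein Lbp rose in LPS blood, by 0.24 ± 0.06 (adjusted p = 0.00251). In trauma-hemorrhage blood 2 fell, complement factor B gene Cfb by 0.21 and Saa4 by 0.26 on the log2 scale. Ceruloplasmin, Cp, rose in LPS spleen by 0.47 ± 0.10 (adjusted p = 0.015) and in trauma-hemorrhage spleen by 1.20 ± 0.14 (adjusted p = 1.7e-05), where the protease inhibitor A2m also rose by 0.28 ± 0.08. In burn blood and burn spleen 0 of 8 passed. The median over the 8 genes lay between -0.11 and 0.12 in the 6 comparisons.

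Of the 16 tested inducers and regulators, 6, 6 and 5 were higher in x in burn, LPS and trauma-hemorrhage blood, with 0, 0 and 3 lower, and 8, 7 and 9 were higher in the spleen of the same models, with 1 lower in trauma-hemorrhage. Cebpb, a C/EBP factor, was at 1.33 ± 0.24 in burn blood, 1.28 ± 0.17 in LPS blood, 1.64 ± 0.15 in burn spleen and 0.98 ± 0.22 in LPS spleen. Socs3, which restrains STAT3 signalling, was at 1.41 ± 0.33 in burn blood, and at 1.37 ± 0.18, 1.49 ± 0.18 and 1.65 ± 0.17 in the 3 spleen sets. Stat3 was at 0.61 ± 0.10 in LPS blood, 0.85 ± 0.09 in LPS spleen and 1.38 ± 0.10 in trauma-hemorrhage spleen. In trauma-hemorrhage blood the interleukin-6 receptor chain Il6st was at 1.33 ± 0.13, the kinase Jak2 at 0.43 ± 0.08 and the NF-kB subunit Rela at 0.52 ± 0.09. Nfkbiz, an NF-kB partner, was at 0.90 ± 0.23 in burn blood and 1.64 ± 0.15 in trauma-hemorrhage spleen, and Jak1 was at 0.32 ± 0.07 in LPS blood and 0.50 ± 0.09 in burn spleen. All of these passed.

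Among 19 other antimicrobial genes of phagocytes 4, 9 and 10 were higher and 1, 1 and 6 lower in burn, LPS and trauma-hemorrhage blood. In the spleen sets 2, 5 and 6 were higher and 2, 0 and 3 lower. Acod1, which makes itaconate, was among the 3 smallest p-values of this list in all 6 sets. It was at 2.39 ± 0.50, 2.29 ± 0.50 and 2.93 ± 0.31 in blood and 1.74 ± 0.16, 3.58 ± 0.37 and 4.29 ± 0.21 in spleen. Zbp1, a sensor of nucleic acids, was at 0.39 ± 0.07 and 2.26 ± 0.22 in LPS and trauma-hemorrhage blood and 0.39 ± 0.07, 0.75 ± 0.11 and 3.20 ± 0.24 in spleen. The granule protein gene Ngp was at 2.71 ± 0.28 in trauma-hemorrhage blood, and Lcn2, which binds bacterial siderophores, at 2.10 ± 0.31 in LPS spleen. Slc11a1 was at 0.97 ± 0.18 in burn blood, Cybb at 0.85 ± 0.13 in trauma-hemorrhage spleen and Camp, the cathelicidin, at -1.16 ± 0.27 in burn spleen. Pglyrp2, which also binds peptidoglycan, was lower at -0.32 ± 0.08 in burn blood and -0.23 ± 0.04 in LPS blood.

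Of 19 tested receptors and partners 3, 5 and 5 were higher and 1, 2 and 5 lower in the blood sets, and 1, 2 and 3 higher and 4, 1 and 3 lower in the spleen sets. Tlr2, a receptor for bacterial lipoproteins, was at 1.01 ± 0.24 in LPS blood, 1.28 ± 0.20 in trauma-hemorrhage blood, 1.29 ± 0.14 in LPS spleen and 1.06 ± 0.12 in trauma-hemorrhage spleen. Fpr2, a formyl peptide receptor that binds serum amyloid A, was at 1.37 ± 0.34 in LPS blood and at 2.07 ± 0.24 and 2.38 ± 0.23 in LPS and trauma-hemorrhage spleen. Tgfbr1 was lower at -0.36 ± 0.08, -0.36 ± 0.06 and -0.65 ± 0.08 in burn, LPS and trauma-hemorrhage spleen, and Tgfbr2 was at 0.47 ± 0.08 in burn spleen. Cd36, a scavenger receptor, was at 0.33 ± 0.09 in burn blood, -0.91 ± 0.15 in trauma-hemorrhage blood and -0.55 ± 0.11 in burn spleen. Tyrobp (0.55 ± 0.13) and Anxa2 (0.57 ± 0.16) in burn blood, S100a4 (1.02 ± 0.16) in trauma-hemorrhage blood and Hba-a1 (0.20 ± 0.05) in LPS blood also passed.

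Hp, Slpi, Pglyrp1 and Lrg1 varied together across blood arrays within groups, and Saa3 less so. Over the 64 blood arrays, with each group's mean subtracted, the Pearson correlation was 0.882 between Hp and Pglyrp1 (Spearman 0.860) and 0.819 between Slpi and Lrg1 (0.801). The other pairs of these 4 lay between 0.752 and 0.818, and those with Saa3 between 0.301 and 0.571. Over the 34 spleen arrays the highest was Slpi with Pglyrp1, at 0.742 (Spearman 0.740), then Hp with Lrg1 at 0.687 (0.658). The other pairs of these 4 lay between 0.440 and 0.670, and those with Saa3 lay between -0.05 and 0.35. Arrays share sets and array-wide differences, so these are descriptions.

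**Figure D5:**
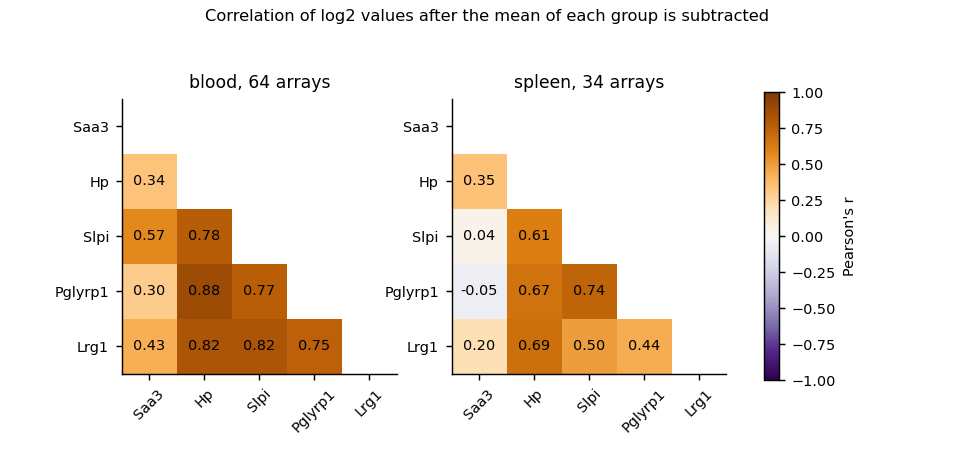
Pearson correlation of log2 values between the 5 genes after each group's mean is subtracted, over 64 blood arrays and 34 spleen arrays. In blood Hp and Pglyrp1 reach 0.882, while the cells of Saa3 lie between 0.301 and 0.571.

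The genes most like each one on the same measure in blood were Wfdc21 (0.956), S100a9 (0.947) and Il1r2 (0.941) for Hp. For Pglyrp1 they were Trem3 (0.931) and Lcn2 (0.929), for Slpi Pilrb1 (0.893), Retnla (0.884) and Txn1 (0.868), and for Lrg1 Ifitm2 (0.892) and Anxa1 (0.865). The remaining nearest feature of Pglyrp1 and of Lrg1 was a probe set with several symbols, left unnamed. Saa3 was nearest to Serpinb2 (0.801), Cfp (0.766) and Selp (0.759). In spleen Hp was nearest to Arg2 (0.916), Fpr2 (0.897) and Clec4d (0.893), and Slpi to Msrb1 (0.810), Pilrb1 (0.792) and Hacd4 (0.784). Pglyrp1 was nearest to Hacd4 (0.842), Lrg1 to Fgl2 (0.787) and Ifitm2 (0.775), and Saa3 to Atm (0.775) and Mafg (0.764). The Spearman values of Saa3 were lower, at 0.592 with Atm and 0.665 with Mafg. The remaining nearest features of Pglyrp1, Lrg1 and Saa3 in spleen were probe sets with no single symbol, left unnamed. No test was made of these correlations.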

How the data were processed

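Total RNA from blood leukocytes and spleen of mice was measured on Affymetrix arrays. The deposited values were linear intensities, 1 per probe set and array; how the authors computed and scaled them, and the genome build, are not given in the sources used here. The lowest deposited value of a set ranged from 9.68 (burn spleen) to 32.5 (LPS blood) and 4.02% to 7.43% of probe sets per array sat on it, which limits dim genes. The number of arrays limits the precision, and depth does not apply. The 64 control probe sets were left out. The platform annotation supplied the symbols (1 symbol for 20380 probe sets, several for 691, none for 1555).

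Intensities were taken as log2(intensity + 16) and quantile normalized within each tissue. For each gene the brightest probe set by mean was kept, and features whose mean fell below the 30th percentile were dropped. Groups follow tissue, model, code and letter in the labels, and replicate numbers follow accession order. Differences were tested in limma 3.58.1 (R 4.3.3; lmFit, contrasts.fit, trended eBayes) with a coefficient for each group, in a fit per set, or over all arrays of a tissue for differences between models. Those between tissues used E arrays alone. P-values were adjusted by Benjamini-Hochberg over all 10247 features, two-sided. On data simulated with independent normal noise, the fits recovered 91% to 100% of 200 randomly chosen genes changed by 1 log2, depending on the comparison. Shifts shared by the genes of an array were not simulated, and genes with a wide spread are recovered less often. A member that did not pass may therefore still have changed by this much. Figures were drawn with matplotlib 3.10.9.

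Named are the 5 genes, from each list the 3 genes with the smallest p among those that passed, and the 3 features most correlated with each of the 5. The members and lists were chosen with earlier results of these data known. Lists covered other acute phase proteins, their inducers and regulators, other antimicrobial proteins of phagocytes, receptors and partners, and cell type markers. Alternatives were the pseudocount, the scaling, the filter, robust and array-weighted fits, 1 fit per tissue and the run of title numbers. Others were the beta-actin ratio as a covariate and leaving out single arrays or the burn blood c E pair, which stood out in these data. Leaving out the high-hepatocyte arrays was added after seeing the data.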

Additional observations from a re-analysis of the deposited data

Results flagged for a closer look

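Single arrays stood apart within their groups in 13 of the 90 combinations of gene and group tested with Dixon's rule (14.4%), where chance flags about 1 in 20. The combinations are not independent, because the genes vary together and the same array can be flagged for several of them. These rates are therefore a description. In trauma-hemorrhage blood c E replicate 2 was the lowest of its group for Hp (512, others 1540 to 2580.2), Slpi (972, others 1570.1 to 2488), Pglyrp1 (582, others 1123 to 1511) and Lrg1 (669, others 1830 to 3904). In the same set c A replicate 3 was the lowest for Hp (485, others 1126 to 1483) and Pglyrp1 (626, others 1123 to 1342). In LPS blood x E replicate 5 was the lowest for Slpi (2488, others 2761 to 3754) and Lrg1 (1048, others 2162 to 3584). In burn blood x A replicate 1, which is among the arrays with high hepatocyte genes, was the highest for Saa3 (1383, others 117 to 147) and Slpi (2797, others 1845 to 1941). In spleen the highest arrays were burn x replicate 2 for Saa3 (80.5, others 57.0 to 61.4), trauma-hemorrhage c replicate 5 for Hp (454, others 115 to 184) and trauma-hemorrhage x replicate 1 for Pglyrp1 (459, others 226 to 275).

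Of 60 differences of x minus c differences tested for the 5 genes in limma, code by letter included, 16 were called. All of these were between sets of different models or tissues. Over all features, the contrasts that held them called from 901 of 10247 (LPS blood minus spleen) to 5069 (trauma-hemorrhage minus LPS blood). In blood these were Saa3 at 5.06 for trauma-hemorrhage minus burn, and Saa3 at 3.45, Slpi at -1.12 and Pglyrp1 at -2.27 for trauma-hemorrhage minus LPS. For burn minus LPS blood they were Saa3 at -1.61, Slpi at -0.79 and Pglyrp1 at -1.48, each lost in some of the fits described above. In spleen they were Saa3 at 2.70, Slpi at 0.59 and Lrg1 at 1.72 for trauma-hemorrhage minus burn, Saa3 at 1.22 and Pglyrp1 at -0.92 for trauma-hemorrhage minus LPS, and Saa3 at -1.48 and Pglyrp1 at -1.05 for burn minus LPS. For LPS blood with letter E minus LPS spleen they were Slpi at 1.34 and Pglyrp1 at 1.97.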

How the results depend on the processing

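Of 333 counts of the 5 genes that passed, recomputed under alternatives over 27 comparisons, 284 stayed within 1.5 times. In the rest, the count reported above is in brackets. The number of all features called also moved under several of these settings, as given below and, for the beta-actin ratio, above. A changed count therefore need not be particular to the 5 genes. A pseudocount of 64 gave 1 (0) for trauma-hemorrhage blood minus spleen. No scaling gave 0 (2) in LPS blood with A. No filter and robust eBayes each gave 1 (2) in LPS spleen. Array weights gave 4 (1) in burn blood, 4 (2) there with A and 1 (0) with E, 5 (3) in LPS blood with E, 1 (0) for code by letter in LPS, 2 (1) for trauma-hemorrhage minus burn blood and 1 (0) for trauma-hemorrhage blood minus spleen. All groups of a tissue in 1 fit gave 1 (2) in trauma-hemorrhage blood with A and with E. The title run as a block gave 4 (2) in LPS spleen. The first run alone gave 1 in trauma-hemorrhage blood (3) and there with A (2) and E (2), 1 in LPS spleen (2), 1 in burn blood with A (2) and 4 (2) in LPS blood with A. The second run alone gave 0 in burn blood (1) and there with A (2), 0 in LPS blood (3) and there with A (2) and E (3), 1 (2) in trauma-hemorrhage blood with E and 5 (2) in LPS spleen. The beta-actin ratio as a covariate gave 3 (1) in burn blood, 1 (2) there with A, 0 in LPS blood (3) and there with A (2) and E (3), 1 in trauma-hemorrhage blood (3) and there with A (2) and E (2), 4 (1) for trauma-hemorrhage minus burn blood, 1 (3) for burn minus LPS blood and 1 (2) for LPS blood minus spleen. Leaving out c E replicates 4 and 5 gave 4 (1) in burn blood, 4 (2) there with A and 2 (0) with E, 2 (1) for trauma-hemorrhage minus burn blood and 2 (0) for burn blood minus spleen. Leaving out the 6 arrays with high hepatocyte genes gave 0 (1) in burn blood and 1 (2) with A, and leaving out all 8 gave 4 (1) in burn blood, 2 (0) with E, 1 (3) for burn minus LPS blood and 2 (0) for burn blood minus spleen.

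Leaving out 1 array at a time (554 fits) kept the count within 1.5 times in 18 comparisons. In the other 9 it ranged from 1 to 4 in burn blood, 1 to 2 there with A, 0 to 2 in LPS blood with A, 1 to 3 in trauma-hemorrhage blood with A and 1 to 2 with E, 0 to 1 in burn spleen, 1 to 3 in LPS spleen, 1 to 2 for trauma-hemorrhage minus burn blood and 0 to 1 for trauma-hemorrhage blood minus spleen. Under the alternatives, 4 of 1665 single values changed sign with a call in either the fit reported above or the alternative. With the actin covariate Hp in LPS blood was at -0.42 and, with A, Slpi at -0.28 and Pglyrp1 at -0.15. These passed in the fit reported above only. Lrg1 in burn blood with E, at -0.14 and not past above, was at 1.74 without the 8 arrays. No call became a call in the other direction. In another 76 single values the sign changed and neither fit passed. The count of all features called in trauma-hemorrhage blood went from 5521 to 1192 in the first run alone, in burn blood from 2083 to 3292 with array weights, 969 without the 6 arrays and 61 in the second run alone, and in LPS blood from 2848 to 498 in the second run alone. The causes were not tested, beyond fewer arrays where arrays were left out. No paired analysis was possible because replicate numbers follow accession order and the labels carry none.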
